A study of Mus musculus with 2 samples.

Results

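The 10 genes described here encode the enzymes that make serine and those that pass its side-chain carbon to folate. They were selected by gene name (Phgdh, Psat1, Psph, Shmt1, Shmt2, Mthfd1, Mthfd1l, Mthfd2, Aldh1l1 and Aldh1l2), and the set was picked from values of these same arrays, on which Psat1 and Aldh1l2 had already been seen to be lower in the knockout. The differences between genotypes are therefore given as a description, with no test. The array named 34796 genes, of which 22174 were above background in both samples, and all 10 enzymes were among them. They were read by 15 probes, 14 of which were above background on both arrays.

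The study hybridised 1 oligonucleotide array for each of the genotypes, both on 1 slide, with Cy3-labelled total RNA. CSE-WT was the control and came from wild-type C57BL/6J mice. CSE-KO came from C57BL/6J mice with a knockout of CSE (cystathionine gamma-lyase, encoded by Cth), which makes hydrogen sulfide from cysteine. All mice were 6 months old and on a high-fat diet, and the labels call the cells beta cells. How the cells were isolated, how many animals gave each sample and which part of Cth was deleted are not given in the sources used here. With 1 array per genotype no difference has a replicate check, and the values compare these samples, not the genotypes.

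Serine synthesis starts from phosphoglycerate, an intermediate of glycolysis. Phgdh oxidises it, Psat1 transfers an amino group to the product from glutamate, and Psph removes the phosphate to release serine. Serine hydroxymethyltransferases (Shmt1 in the cytosol, Shmt2 in mitochondria) then split serine into glycine and a carbon unit carried on tetrahydrofolate. In mitochondria that unit is oxidised by Mthfd2, and it leaves as formate through Mthfd1l or is burned to CO2 by Aldh1l2 with production of NADPH. In the cytosol the trifunctional enzyme Mthfd1 takes formate up again, and Aldh1l1 is the counterpart of Aldh1l2. Serine also joins homocysteine at the enzyme Cbs, the step before CSE in transsulfuration, and several of these genes are known targets of the stress-induced transcription factor ATF4.

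Cth, the targeted gene, was dim in both samples. Its probes gave 13.5 and 12.8 units in CSE-WT and 3.15 and 3.68 on the CSE-KO array, none well above background, while 308 negative controls had a 95th percentile of 4.32 and 3.43 units. No fold is given, and these probes are no firm check of the genotype labels. Beta-cell markers were measured in 8 of 8 cases, with summed levels of 2562 and 2380 times the 75th percentile of gene probes on the CSE-WT and CSE-KO arrays, led by Ins1 and Ins2 (log2 differences, CSE-KO minus CSE-WT, of -0.12 and -0.06). Markers of other pancreatic cells were abundant too, and none of the listed alpha, delta, PP, acinar, endothelial or macrophage markers was below background on both arrays.

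The probes are 60 bases long, and the following lines give the first 30 bases, 5′ to 3′, of those for the enzymes that differed most (Psat1 and Aldh1l2) and for the Shmt pair, which lies in different compartments. All of them match the minus strand of mouse build mm9. The brighter Psat1 probe lies at chr19:15979622-15979681 and the dimmer one at chr19:15991586-15991645, which is 11964 bases further upstream in the gene. The Aldh1l2 probe lies at chr10:82950571-82950630, the Shmt2 probe at chr10:126954811-126954870, and the Shmt1 probe above background at chr11:60620453-60620512.
Psat1, brighter probe: tgttcatgtatcagtgttttcaatcgactg
Psat1, dimmer probe: cgtacctgacgtcaagggagcggtgctggt
Aldh1l2: taaattgccttccttaagttttgctttttt
Shmt2: cgatgcctggatttgatgaacgttgaggac
Shmt1: atgccaccctgtgggcttctcatgagaaga
None of these 5 probes shared a stretch of 20 bases with a probe of another name on the array, in either orientation. The position of the probes within exons was not determined, since an annotation of mm9 was not used here.

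Of the 10 enzymes, 9 had a lower level in CSE-KO and 1 had a higher level. Psat1 and Aldh1l2 were lower by 1.94-fold and 1.93-fold, Shmt2, Phgdh and Psph by 1.45-fold, 1.42-fold and 1.37-fold, and the other 5 differed by 1.15-fold or less. Levels are log2 intensities minus the 75th percentile of all gene probes on the array, and differences are CSE-KO minus CSE-WT. Where a gene had several probes above background, the one with the highest mean level stands for it. Technical error, called the spot SD here, is the SD of a CSE-KO minus CSE-WT difference between single spots. It comes from the spread within each array between spots of the probes printed 10 times, at the same level. The spot SD ranged from 0.055 to 0.211 log2 units over the 14 probes above background. It covers variation between spots within an array only, not differences in labelling, hybridisation or scanning between the 2 arrays.

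Psat1 gave an intensity of 3194 units in CSE-WT and 1715 in CSE-KO with its brighter probe. The dimmer probe gave 184.0 and 106.3 units. Both were lower in CSE-KO by a similar amount, with scaled log2 differences of -0.95 ± 0.063 and -0.85 ± 0.182 (spot SD), although they lie nearly 12 kb apart in the gene. The gap of 0.10 between them was within the spot SD of that gap, 0.193.

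Phgdh, the first enzyme of the pathway, gave 9458 units in CSE-WT and 6946 in CSE-KO. Its other probe, 88 bases away on the minus strand of chromosome 3, gave 9103 and 7042 units. Their log2 differences were -0.50 ± 0.055 and -0.43 ± 0.055 (spot SD), so both were lower in CSE-KO by more than 3 times the spot SD. Psph, the last enzyme, gave 2317 and 1756 units with its brighter probe and 1191 and 962.6 with the other. Their differences were -0.46 ± 0.065 and -0.36 ± 0.074. All 3 serine synthesis enzymes were thus lower in CSE-KO with each of their 6 probes, with a median difference of -0.50 over the 3 genes.

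**Figure D1:**
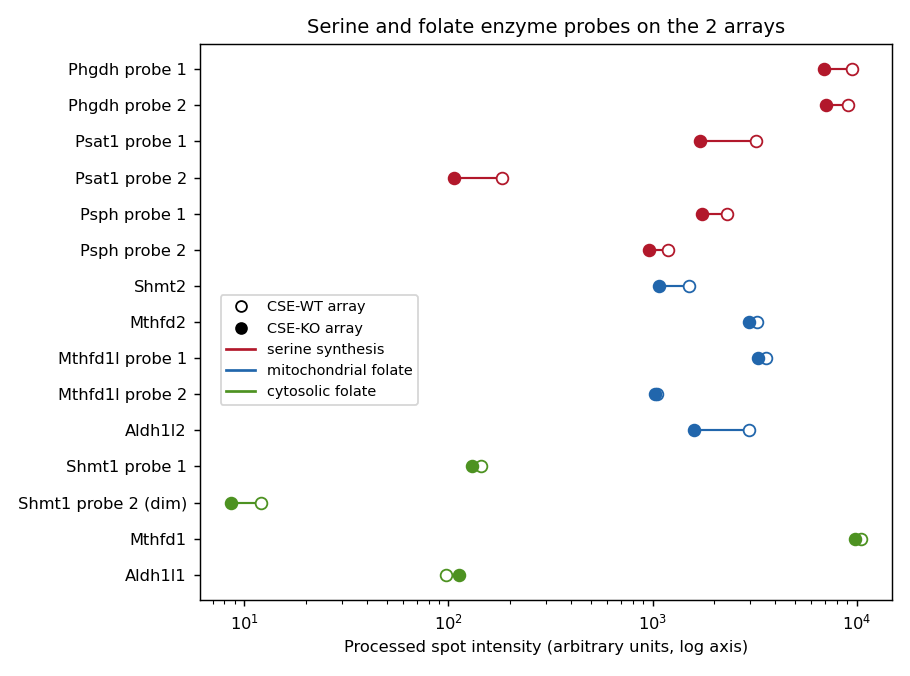
Processed spot intensity (log axis, arbitrary units) of every probe of the 10 enzymes on the CSE-WT array (open circles) and the CSE-KO array (filled circles), joined by a line and coloured by role. Probes of 1 gene are numbered from the brighter to the dimmer; the CSE-KO circle lies to the left for every probe except that of Aldh1l1, and the dim Shmt1 probe was not above background.

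The mitochondrial folate enzymes were also lower, but by unequal amounts. Aldh1l2, which burns formyl groups to CO2, gave 2975 units in CSE-WT and 1601 in CSE-KO, a difference of -0.95 ± 0.064 (spot SD). Shmt2, which delivers the carbon unit in mitochondria, gave 1503 and 1078 units, a difference of -0.53 ± 0.071. Both lay well beyond 3 times the spot SD, and each was read by 1 probe. The other mitochondrial enzymes, Mthfd2 and Mthfd1l, differed much less. Mthfd2 gave 3266 and 2983 units (-0.19 ± 0.059, but -0.07 after normexp background correction). Mthfd1l, which releases formate, gave 3577 and 3279 units (-0.18 ± 0.058). The other Mthfd1l probe gave 1048 and 1025 units, a difference of -0.09 ± 0.074 that was close to 1 spot SD. The median over the 4 mitochondrial enzymes was -0.36.

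Of the cytosolic enzymes, Mthfd1 was bright and Shmt1 and Aldh1l1 were dim, with larger spot errors. Mthfd1 gave 10489 units in CSE-WT and 9760 in CSE-KO, a difference of -0.16 ± 0.055 (spot SD). Shmt1 gave 144.1 and 130.5 units (-0.20 ± 0.184), and its other probe, with 12.1 and 8.62 units, did not stand well above background in CSE-WT or CSE-KO. Aldh1l1 gave 97.5 and 112.2 units, and its difference of 0.15 ± 0.211 was smaller than the spot SD. In the main setting none of the 3 cytosolic enzymes was past 3 times the spot SD, and their median was -0.16.

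Set against its cytosolic counterpart, Aldh1l2 differed from Aldh1l1 by -1.10 log2 units, with a spot SD of 0.220 for the gap. Shmt2 differed from Shmt1 by -0.34 with a spot SD of 0.198, within 3 times that error. Mthfd2 and Mthfd1l differed from Mthfd1 by -0.03 and -0.02, with spot SDs of 0.081 and 0.080. Only the Aldh1l pair had a gap beyond 3 spot SDs, and each of its enzymes rests on a single probe, that of Aldh1l1 being dim. The low value of Aldh1l2 was known when the set was picked. Its large gap is therefore a description and no test of a difference between compartments.

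**Figure D2:**
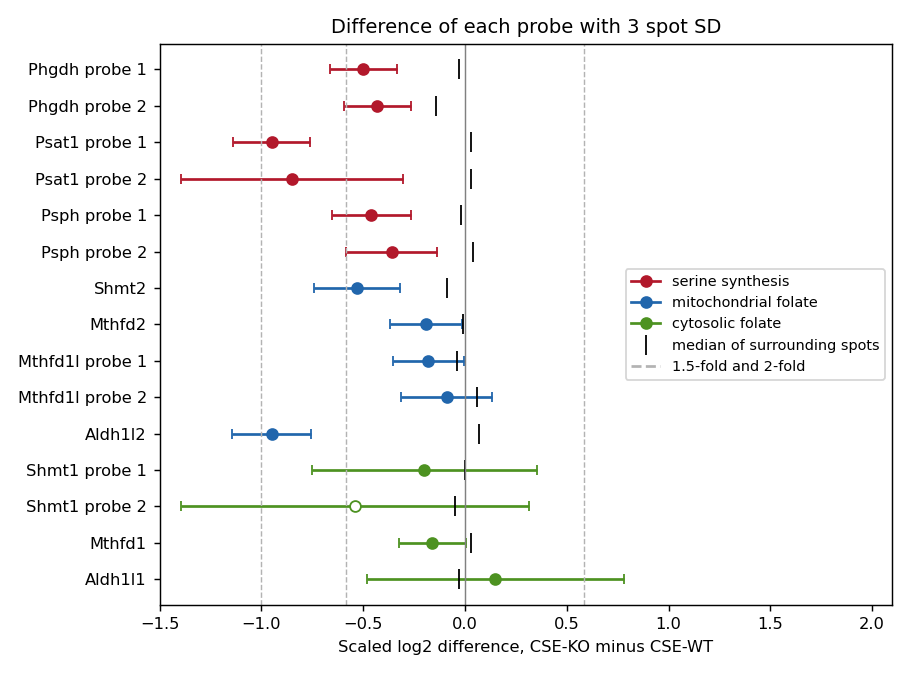
Scaled log2 difference (CSE-KO minus CSE-WT) of every probe, with bars of 3 spot SD; the open circle is the Shmt1 probe not above background, black ticks are the median difference of the spots around each probe, and dashed lines mark 1.5-fold and 2-fold. The bars of the 6 serine synthesis probes, Shmt2 and Aldh1l2 lie wholly below 0, those of Mthfd2 and the brighter Mthfd1l probe only just, and the others reach or cross it.

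Among all 22174 measured genes 51.3% were lower in CSE-KO by any amount, and the median difference was -0.01, against 9 of 10 enzymes and a median of -0.33. At least 1.5-fold lower were 2 of the 10 enzymes (Psat1 and Aldh1l2) and 2.51% of all measured genes. At least 1.5-fold higher were 0 of the 10 and 3.11% of all genes. No enzyme was at least 2-fold lower, against 0.884% of all genes. Lower by over 3 spot SD were 7 of the 10 (Phgdh, Psat1, Psph, Shmt2, Mthfd1l, Mthfd2 and Aldh1l2) and 8.80% of all genes, and 0 of the 10 and 7.59% were higher by as much. Phgdh, Psat1, Psph, Shmt2 and Aldh1l2 were past 3 spot SD in all 12 settings that gave them a value, Mthfd2 in 6, Mthfd1l in 5 and Mthfd1 in 3 of them. The spot SD of the main setting was used throughout. Leaving out probes in local patches, lifting the filter on dim probes and keeping only genes above the median level left the values of these genes unchanged. Those settings are therefore no check on them, and the authors' deposited table gave nearly the same values as quantile normalization. The shares of all genes stand beside the counts as background only, because the same contrast chose the set.

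Dim genes scattered most, and 8 of the 10 enzymes, all but Shmt1 and Aldh1l1, lay above the median level of measured genes. In that brighter part of the array 45 of 11087 genes (0.406%) were at least 1.5-fold lower, and 12.7% were lower by over 3 spot SD. Over all measured genes, 219 had a lower difference than Psat1 and 221 than Aldh1l2, while 4620 had a lower one than Mthfd1. Probes of 1 gene also differ in what they read: over 1477 genes with several probes, all above the median level, probe differences varied within a gene with an SD of 0.097 log2 units. Over all 6129 genes with several measured probes it was 0.296. The gaps between the probes of Phgdh, Psph and Mthfd1l were 0.07 to 0.10, and that of Psat1, whose dimmer probe lies below the median level, was 0.10. A gap is a difference between 2 probes and so is not on the same scale as these SDs.

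**Figure D3:**
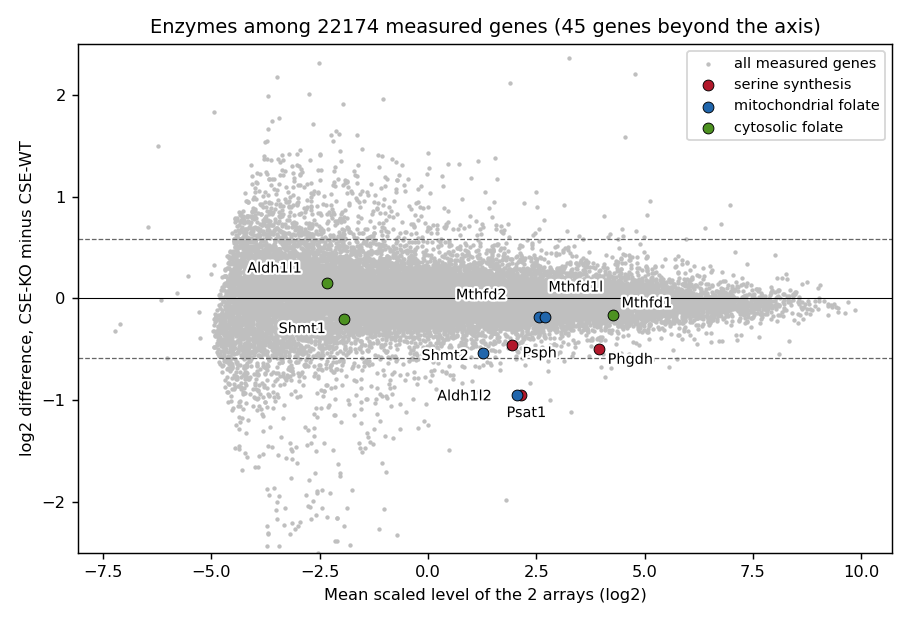
Log2 difference (CSE-KO minus CSE-WT) against the mean scaled level of the 2 arrays for 22174 measured genes (grey) and the 10 enzymes (coloured by role); dashed lines mark 1.5-fold. Psat1 and Aldh1l2 lie below the lower dashed line at a level where few grey points do; 45 genes fall beyond the axis.

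Position on the slide was examined because spots near each other can share a local trend. The measured spots within 3 rows and 3 columns of the enzymes' 14 measured probes (15 to 30 spots each) had median differences from -0.14 to 0.07. For Psat1 and Aldh1l2 these surroundings were at 0.03 and 0.07, and their own differences came to -0.98 and -1.01 once the surroundings were subtracted. Shmt2 went from -0.53 to -0.45. The Phgdh probes, with surroundings at -0.03 and -0.14, went to -0.47 and -0.28. No enzyme had a probe in surroundings beyond 0.5, the limit for a local patch. In the authors' deposited table of intensities, which is on a linear scale with the same distribution in both columns apart from rounding, Psat1 gave 3243 and 1680 units and Aldh1l2 3006 and 1570. The differences there were -0.95 and -0.94.

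**Figure D4:**
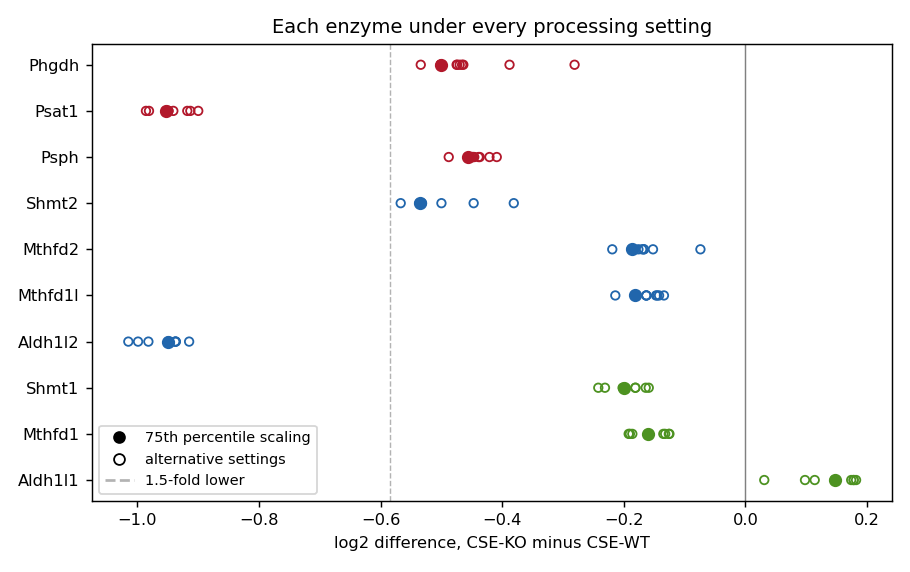
Log2 difference (CSE-KO minus CSE-WT) of each enzyme under the main scaling (filled) and the alternative settings (open circles), with the dashed line at 1.5-fold lower. Psat1 stayed between -0.99 and -0.90 and Aldh1l2 between -1.02 and -0.92, past the line in each of 12 settings. Each of the other 8 enzymes stayed short of the line and on its own side of 0 in the settings that gave it a value. Some of the settings leave the main values unchanged.

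The serine and folate enzymes were set beside 5 lists of neighbouring pathways, chosen with earlier results of these data known. Of the other folate cycle enzymes and carriers 17 of 19 were measured, and 12 were higher and 5 lower in CSE-KO, with a median of 0.11. The folate carriers Slc19a1 of the plasma membrane (0.28) and Slc25a32 of mitochondria (0.26) were higher by over 3 spot SD. The other probe of Slc19a1 went the other way (-0.14).

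Genes that use or carry serine and glycine showed no common direction, with 11 lower and 12 higher of 23 measured (27 listed) and a median of 0.00. Slc38a5, a transporter of glutamine, serine and glycine, stood apart at 5195 units in CSE-WT and 2702 in CSE-KO, 2.00-fold lower by its only measured probe. Cbs, which condenses serine with homocysteine, was higher (9987 and 13617 units, 0.39), as was the glycine methyltransferase Gnmt (0.37). Amt, of the glycine cleavage system, differed by 0.38, only 1.3 times the spot SD. For purine and thymidylate synthesis, which consume the formyl and methylene units, 11 of 16 measured genes were lower and 5 higher (median -0.08). Ppat, the first committed enzyme of purine synthesis, was lowest at 1071 and 745.3 units (-0.58, its other probe at -0.65). Pfas and Adss (both -0.30) were lower by over 3 spot SD, and Gmps was within that error, with 3 probes from -0.21 to 0.21.

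Glycolysis, whose upper part supplies phosphoglycerate, lay close to 0, with 9 of 13 genes lower and a median of -0.03. The list also holds enzymes that act after phosphoglycerate, such as Eno1. The largest differences in that list were in Aldoa (-0.20), Pfkp (-0.20), Eno1 (-0.19) and Pfkm (0.17). That of Pfkp was within 3 spot SD, and its other probe stood at 0.02. The spots around Eno1 had a median of -0.15, and those around Aldoa, Pfkp and Pfkm had medians from -0.02 to 0.09. ATF4, its regulators and its targets outside the 10 enzymes went both ways, with 22 of 36 measured genes lower (7 by over 3 spot SD) and 14 higher (6 by over 3 spot SD), and a median of -0.06. Lower were the stress protein gene Nupr1 (1.51-fold), asparagine synthetase, Asns (1.34-fold), and the ATF4 relative Atf5 (-0.42). The spots around these genes had medians of -0.15, -0.07 and -0.06, which were not subtracted. Higher were the pseudokinase gene Trib3 (1.63-fold) and Chac1, which degrades glutathione (1.55-fold). Atf4 itself gave 75586 units in CSE-WT and 86741 in CSE-KO (0.14, 2.6 times the spot SD). Its other probe was higher by more (0.27).

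**Figure D5:**
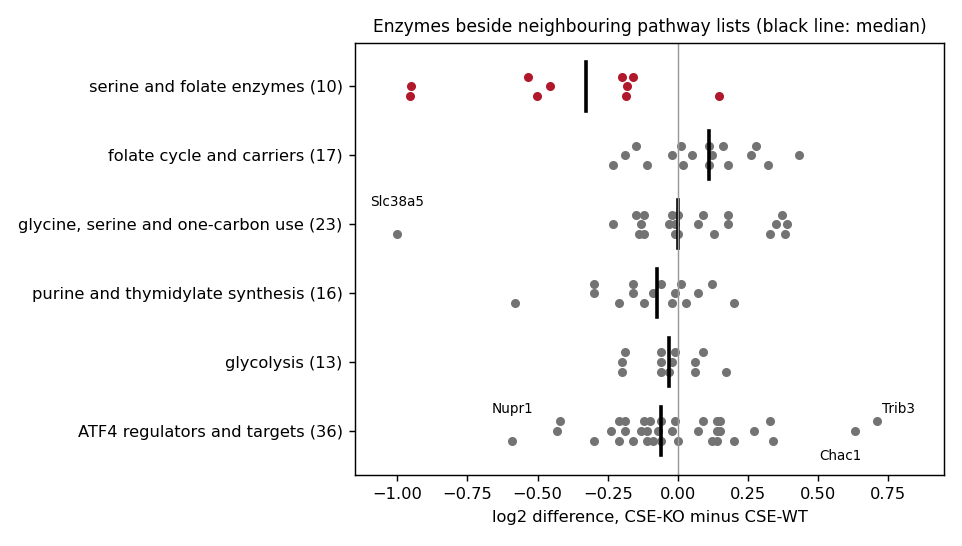
Log2 difference (CSE-KO minus CSE-WT) of each measured gene in the 10-enzyme set (red) and in 5 neighbouring pathway lists (grey, number measured in brackets), with black lines at the medians and names for list genes past 1.5-fold. The median of the enzymes is -0.33, and those of the other lists lie between -0.08 and 0.11.

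Transcription start regions of the enzymes were searched because several of them were lower together. RefSeq (GRCm38.p6) start windows matched 9 of the 10 enzymes, all but Aldh1l2, in 10 windows, and the 250 bases before the start were searched on both strands. The C/EBP-ATF response element TGATGNAA was in 0 of the 10 windows, against 3.45% of 32851 windows of all genes. With so low a share over all genes, 0 of 10 does not show that these genes lack such sites. Only these exact letters before the start were searched. The MYC E-box CACGTG was in 0 of the 10 windows (6.02% of all). The antioxidant response element core TGACNNNGC was in the Phgdh window alone (10.2% of all), with its first base at -53 from the start, and the cAMP response element core TGACG was in Mthfd1l and Shmt1 (17.8% of all). The 5-base CCAAT box was in 7 of the 10 windows, 1 for each of 7 genes, against 33.8% of all windows, and none of these letters shows that a factor binds there. The windows without it were that of Mthfd1l, that of Shmt2 and 1 of the 2 of Psat1.

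The following lines give these 250 bases, 5′ to 3′ on the strand of the gene, for the 3 serine synthesis genes, which were lower with every probe. Capitals mark CCAAT or its reverse complement ATTGG. The stretches are chr3:98339970-98340219 for Phgdh, chr19:15925060-15925309 for the Psat1 window that holds the motif and chr5:129787254-129787503 for Psph, all on the minus strand.
Phgdh: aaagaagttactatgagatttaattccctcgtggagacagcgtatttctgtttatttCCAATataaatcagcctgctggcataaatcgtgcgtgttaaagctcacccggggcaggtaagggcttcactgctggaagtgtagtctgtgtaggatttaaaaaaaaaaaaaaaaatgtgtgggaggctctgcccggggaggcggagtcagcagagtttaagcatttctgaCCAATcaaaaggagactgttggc
Psat1: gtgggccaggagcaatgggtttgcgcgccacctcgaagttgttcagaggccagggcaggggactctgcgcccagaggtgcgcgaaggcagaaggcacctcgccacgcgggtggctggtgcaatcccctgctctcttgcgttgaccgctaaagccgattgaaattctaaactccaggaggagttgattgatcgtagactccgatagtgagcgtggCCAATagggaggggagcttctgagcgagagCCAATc
Psph: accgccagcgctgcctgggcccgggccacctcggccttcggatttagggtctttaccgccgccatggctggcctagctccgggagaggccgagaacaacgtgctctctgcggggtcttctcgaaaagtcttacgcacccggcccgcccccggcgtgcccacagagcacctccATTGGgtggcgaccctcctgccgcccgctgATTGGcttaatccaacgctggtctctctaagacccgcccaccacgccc
Each of the 3 stretches holds the motif in 2 places. Counted from the start, their first bases are at -193 and -23 in Phgdh, at -36 and -6 in Psat1, and, on the opposite strand, at -78 and -48 in Psph. Mthfd1, which differed by only -0.16, and Aldh1l1, which was not lower, carry it as well.

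Several of the marker lists differed between the arrays. Of 11 acinar markers 6 were lower, 1 of them at least 1.5-fold, and 5 higher. Their sum was 996.6 and 937.7, and the most abundant differed in opposite ways (Amy2a5 -0.42, Ctrb1 0.46). All 5 alpha-cell markers were lower (median -0.62), with a sum of 744.2 and 675.1 set mostly by Gcg (-0.14) and with Irx1 at -0.66. Delta and PP markers were led by Sst (-0.05, Hhex 0.09) and Ppy (-0.12), and their sums were 453.0 and 437.2, and 486.4 and 448.2. All 5 measured stellate markers were higher (median 0.84, at least 1.5-fold in 3, sum 2.65 and 3.90, Col1a2 0.44, Pdgfrb 0.32). All 7 macrophage markers were higher too (median 0.45, sum 23.0 and 28.5, Csf1r 0.06, C1qa 0.45). The 3 probes of Csf1r ranged from 0.06 to 0.4. Ductal markers were measured in 4 of 6 cases (2 lower, sum 13.4 and 11.9, Krt7 -0.26, Spp1 0.53), with Sox9 and Cftr below background on both arrays, and the 5 endothelial markers summed to 71.3 and 72.3 (Kdr -0.02, Plvap 0.09). By the probe that stands for each gene, all 6 proliferation markers were at least 1.5-fold higher (Mki67 2.69-fold, Birc5 2.33-fold, sum 2.09 and 5.02). Over all measured genes 3.11% were higher by as much. These 6, and the 3 stellate markers past 1.5-fold, lay below the median level, where differences scattered most. The other probe of Cdk1 went the other way (-2.32), and the 3 probes of Ccnb1 ranged from 0.44 to 1.03. The part of the marker shifts in the lower serine and folate enzymes was not tested. In RNA from many cells, fewer cells of a type and less RNA per cell cannot be told apart.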

How the data were processed

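Total RNA was labelled with Cy3 and hybridised to 1 Agilent array per genotype. Per the file headers, Agilent Feature Extraction 10.7.1.1 gave the deposited intensity of each spot with spatial detrending on and local background correction off; version 9.5.1.1 stands in the submitters' processing notes. The authors also deposited a table of linear intensities for 55681 probes (median 37.7 in both columns; r = 0.9999 with the log2 signal of the matching array across probes, 0.985 and 0.986 with the other). Its sorted columns hold identical values in 98.4% of ranks, and the steps behind it are not given in the sources used here.

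From the scanner files, control spots and outlier spots were left out, no gene spot was saturated, spots of each probe were averaged as log2 signals, and each array was scaled to its 75th percentile over gene probes (519 units in CSE-WT, 540 in CSE-KO). A gene was measured if a probe was well above background on both arrays (55.4% of probes), and its brightest measured probe was used. Spot error came from 284 of the 399 probes printed 10 times, in 8 bins of level. No test was run, and fixed folds of 1.5 and 2 took its place. Only the choice of the brightest probe and the subtraction were tried on simulated data, not the scaling, the filters or the spot error.

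Python 3.11.15, pandas 2.3.3, R 4.3.3 and limma 3.58.1 were used, the last for normexp (offset 50), quantile and cyclic loess alternatives. The enzymes and all 15 lists were chosen with earlier results of these data known. All enzymes were named with every probe. In each pathway list the 4 genes with the largest absolute difference and those past 1.5-fold were named, and in each marker list the 2 most abundant, except that some genes of the folate list are not reported here; Atf5 and Atf4 were added after their values were seen. The number of arrays limits the precision.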

Additional observations from a re-analysis of the deposited data

How the results depend on the processing

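A total of 12 alternatives were run. The count of enzymes lower in CSE-KO was 9 of 10 in all but those that dropped genes: 8 of 8 among genes above the median level, and 7 of 8 without Psat1 and Aldh1l2. The share of all genes lower ranged from 43.8% with median scaling to 58.4% with no filter on dim probes. Among genes above the median level it was 56.0%. The median over the enzymes, -0.33 in the main setting, was -0.48 among genes above the median level, -0.24 with the median of surrounding spots subtracted (chosen after seeing the data) and -0.19 without Psat1 and Aldh1l2. In that last setting 0 enzymes were at least 1.5-fold lower, by construction; in every other setting there were 2. Over the scalings, normexp and the authors' deposited table the median lay between -0.36 and -0.29. Enzymes lower by over 3 spot SD numbered 7 in the main setting, beside 8.80% of all genes, and 5 to 8 in the others. Among genes above the median level they were 7 of 8, beside 12.7% of genes. For the remaining settings the share over all genes was not counted. Mthfd2 and Mthfd1l were short of 3 spot SD after median scaling, quantile, cyclic loess and normexp and in the authors' deposited table. Both were also short of it with surroundings subtracted, and Mthfd1l with the mean of all measured probes. Mthfd1 was past 3 spot SD after normexp, after spike-in scaling and with surroundings subtracted. No enzyme turned direction in a setting that gave it a value. Normexp brought Phgdh to -0.39, Shmt2 to -0.38 and Mthfd2 to -0.07; subtraction of surroundings brought Phgdh to -0.28, where its other probe, then the higher in mean level, stood for it.

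Over all genes, the count at least 1.5-fold lower was 556 in the main setting, 228 after normexp, 2553 of 34796 with no filter on dim probes and 45 of 11087 above the median level. The glycolysis median lay between -0.06 and 0.02 and that of serine and glycine use between -0.03 and 0.04, so neither had a settled sign, whereas the folate list stayed between 0.05 and 0.14. No paired analysis was possible because each genotype has 1 array. Low signal limits Shmt1 and Aldh1l1, whose spot SDs were 0.184 and 0.211. No alternative addresses the spread between animals.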

Other observations

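The Phgdh probes each shared at least 20 bases with 1 further probe that carries no gene symbol on the array. The partner of the brighter Phgdh probe gave 5122 units in CSE-WT and 3705 in CSE-KO, a scaled log2 difference of -0.52 beside -0.50 for the Phgdh probe. The partner of the other gave 9925 and 7367 units, a difference of -0.49 beside -0.43. Whether they read Phgdh itself or a related sequence was not determined. A probe described as Aldh1l1 but named by a transcript identifier was not above background on either array, with 3.89 and 3.06 units, and was not counted with the enzymes.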
